A study of Homo sapiens with 4 samples.

Results

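The nuclear genes of respiratory complexes II to V were followed in newly made RNA of K562 cells. Members were the protein-coding genes whose GENCODE 29 symbol begins with SDHAF, UQC, COX followed by a digit, or ATP5, together with SDHA, SDHB, SDHC, SDHD, CYC1 and CYCS. The rule used names only and no measured value. It found 69 of the 60279 human gene identifiers, of which 8 belong to complex II, 13 to complex III, 26 to complex IV, 21 to complex V and 1 encodes cytochrome c. By role, 46 were subunits, 17 were assembly or supercomplex factors, and the remaining 6 were cytochrome c, the ATP synthase inhibitor ATP5IF1, the coupling factor gene ATP5S, the copies UQCRHL and ATP5MGL, and the readthrough ATP5MF-PTCD1.

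K562 is an established chronic myeloid leukaemia cell line with erythroid features. The cells were untreated apart from the label, 1 mM 4-thiouridine, a uridine analogue that enters RNA while it is being made. Cells were labelled for 15 min (2 libraries) or for 5 min (2 libraries), and 15 µg of RNA from Drosophila S2 cells was mixed with 150 µg of total RNA from every sample before the labelled RNA was biotinylated and enriched (TT-seq). Whether libraries of one label time stem from independent cultures is unknown here, and p-values therefore cover the spread among the sequenced libraries alone, part or all of which could be technical.

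Complex II (succinate dehydrogenase) passes electrons from succinate to ubiquinone, complex III passes them from ubiquinol to cytochrome c, complex IV (cytochrome c oxidase) passes them to oxygen, and complex V (ATP synthase) uses the proton gradient to make ATP. Complex II is encoded wholly in the nucleus, while complexes III, IV and V combine nuclear subunits with a few made in the mitochondrion. Assembly factors insert cofactors such as haem, copper and iron-sulfur clusters, or hold partly built complexes, and are not part of the finished enzyme.

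The libraries held 5051370 and 4726327 human reads after 15 min, against 4339981 and 4695405 after 5 min, and 318710 and 308978 fly reads after 15 min, against 897018 and 803914 after 5 min. The members took 0.610% and 0.602% of human reads in the 15 min libraries and 0.755% and 0.774% in the 5 min libraries. All 7 K562 markers had reads, with 2828 to 3161 summed reads per library after 15 min and 4271 to 5187 after 5 min. The summed reads of 3 marker genes each were 46 to 47 after 15 min and 64 to 71 after 5 min for T cells, 50 to 53 after 15 min and 12 to 20 after 5 min for B cells (MS4A1 at 0 in all 4 libraries), 107 to 112 after 15 min and 88 to 101 after 5 min for monocytes and macrophages, 4 to 7 after 15 min and 10 to 12 after 5 min for fibroblasts, and 781 to 803 after 15 min and 933 to 1127 after 5 min for epithelium. Their part in the results was not tested.

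Levels are given as reads per 100000 fly reads, called spike-in scaled reads, and between genes only per kb of exon. The accumulation test compared the label times on this scale. The share test compared them after human libraries were scaled to each other by TMM, so that a gene that gained as much as the bulk of genes has a log2 fold change near 0. In these bulk libraries fewer transcribing cells and less labelled RNA per cell cannot be told apart.

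Labelled RNA of nearly every member was higher after 15 min than after 5 min, but most subunit genes gained less than the bulk of genes and fell in share. Of the 64 members that passed the filter on low counts, 63 rose in accumulation, beside 98.4% of all 17322 tested genes and 98.5% of tested protein-coding genes, and 0 fell, beside 0.0115% of all tested genes. In all 64 both 15 min libraries lay above both 5 min libraries, beside 99.0% of all tested genes. Both shares are close to the background. The median member was 2.54-fold higher after 15 min (range 1.40 to 5.33), beside 3.20-fold for all tested genes and 2.96-fold for the 11547 protein-coding ones. UQCRHL, a copy of the hinge subunit gene UQCRH, did not pass the accumulation test. The 5 members left out by the filter were COX4I2, COX6A2, COX7B2, COX8C and ATP5MGL.

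In the share of labelled RNA, 38 of the 64 tested members fell and 3 rose, with 23 not called. Among all tested genes 21.3% fell and 16.8% rose, and among tested protein-coding genes 30.5% fell and 13.7% rose. The fallen members were 59.4% of those tested. Over all 64 tested members, fallen or not, the median log2 fold change in share was -0.31. It was 0.03 for all tested genes and -0.08 for protein-coding ones. With total human counts in place of TMM the median of all tested genes moved to 0.13, the calls over all genes changed to 4233 higher and 2805 lower, against 2915 higher and 3692 lower with TMM, and among members 33 fell and 5 rose. In 42 of the 64 tested members both 15 min libraries lay below both 5 min libraries in share, and in 6 both lay above. Of all tested genes 33.0% lay below and 34.6% above. Of the 11547 tested protein-coding genes 5104 lay below and 3147 above.

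By complex, 4 of 8 tested members of complex II fell in share, 8 of 13 of complex III, 12 of 22 of complex IV and 14 of 20 of complex V, while 0, 0, 1 and 2 rose. The median log2 fold changes in share were -0.14, -0.48, -0.23 and -0.42 in the same order, and the median folds in accumulation were 2.85, 2.24, 2.66 and 2.34. The complexes differ in their mix of classes. Assembly or supercomplex factors were 4 of 8 tested members in complex II, 3 of 13 in complex III and 10 of 22 in complex IV, and complex V has none here. Over subunits alone the share medians were -0.41, -0.56, -0.59 and -0.50. With an unadjusted p under 0.05 the risen members of complex II numbered 1, the assembly factor SDHAF1.

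The medians of subunits and of assembly factors lay further apart than those of the complexes. Of 42 tested subunits 33 fell in share, 0 rose and 9 were not called, with a median log2 fold change of -0.53. Every count of 0 risen or fallen genes given for a list of subunits, of assembly factors or of other pathway genes was, with edgeR, also 0 at an unadjusted p under 0.05 and 0 with DESeq2, except among the complex II assembly factors, where SDHAF1 passed unadjusted. Of 17 tested assembly or supercomplex factors 4 fell, 1 rose and 12 were not called, with a median of -0.05, which was 0.05 with total human counts. The fallen were 78.6% of tested subunits and 23.5% of tested factors. Among all tested genes 21.3% fell and among protein-coding ones 30.5%, so the share of fallen factors was near the background. Subunits held 79.5% ± 0.0645 of the members' reads after 15 min and 84.3% ± 0.158 after 5 min, while assembly factors held 10.9% ± 0.131 after 15 min and 8.53% ± 0.217 after 5 min (mean and SD of 2 libraries). For both classes the libraries of the 2 label times did not overlap. The same difference stood inside each complex: the median log2 fold change in share was -0.41 for subunits and 0.07 for assembly factors of complex II, -0.56 and -0.05 in complex III, and -0.59 and -0.19 in complex IV. The rule finds no assembly factor for complex V, whose 17 subunits had a median of -0.50. No test of the difference between the classes was run.

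Summed over their genes, all 4 complexes were higher after 15 min. Complex II summed to 823 and 833 spike-in scaled reads after 15 min, against 281 and 332 after 5 min, a ratio of 2.70 ± 0.317. Complex III summed to 1922 and 1759 after 15 min, against 711 and 862 after 5 min, a ratio of 2.34 ± 0.351. Complex IV summed to 2114 and 2054 after 15 min, against 786 and 997 after 5 min, a ratio of 2.34 ± 0.395. Complex V, which makes the ATP, summed to 4259 and 4033 after 15 min, against 1712 and 2115 after 5 min, a ratio of 2.17 ± 0.333. Within each complex the 15 min libraries lay above the 5 min libraries. The ratio for all human genes was 2.92 ± 0.394. The errors combine the SDs of 2 libraries per label time and share the fly read totals, and 2 against 2 libraries cannot give a permutation p below 0.333, so these ratios were not tested.

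The fly totals drop out when each complex is given as a percentage of the members' reads in the same library. Complex V took 44.0% and 43.8% after 15 min, against 46.8% in both 5 min libraries, so it held less of the members' RNA after the longer label. Complex II took 8.51% and 9.05% after 15 min, against 7.69% and 7.34% after 5 min, and cytochrome c took 5.72% and 5.71% after 15 min, against 4.53% and 4.72% after 5 min. For these 3 the label times did not overlap. Complex III took 19.9% and 19.1% after 15 min, against 19.4% and 19.1% after 5 min, and complex IV took 21.9% and 22.3% after 15 min, against 21.5% and 22.1% after 5 min. For these both label times overlapped. Single genes weigh on these percentages. After 15 min ATP5F1B gave 2088 of 13574 and 2087 of 12460 complex V reads. After 5 min ATP5F1B gave 3496 of 15360 and 3936 of 17002. SDHA gave 1051 of 2622 and 959 of 2573 complex II reads after 15 min. After 5 min SDHA gave 798 of 2520 and 877 of 2666. Whether the complexes differ without these genes was not tested.

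**Figure D1:**
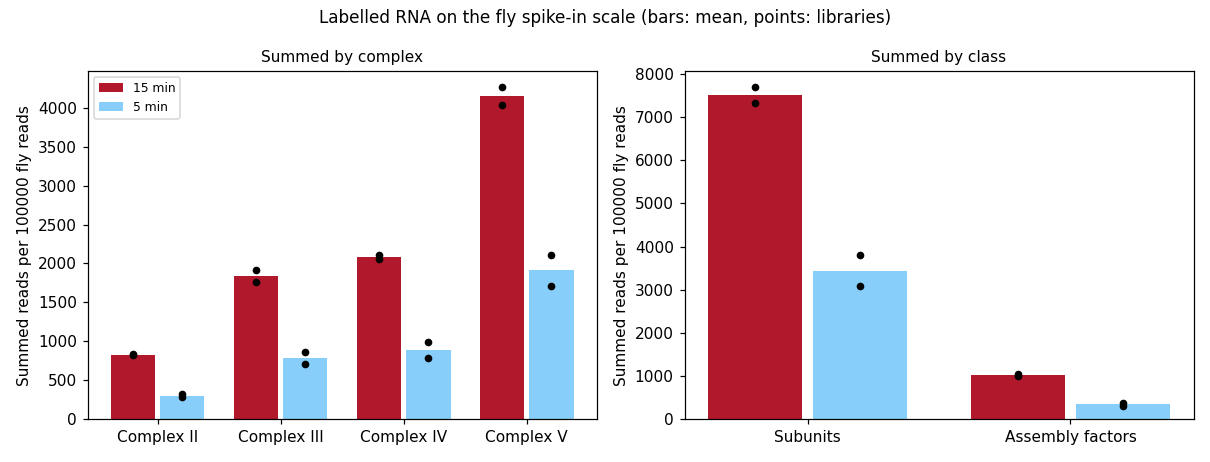
Summed spike-in scaled reads (reads per 100000 fly reads, linear axes) of the genes of each complex (left) and of subunits and assembly factors (right) after 15 min (red) and 5 min (blue); bars are means of 2 libraries and points are libraries. Complex V reached 4259 and 4033 after 15 min, against 1712 and 2115 after 5 min, and subunits reached 7687 and 7324 after 15 min, against 3078 and 3816 after 5 min.

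Levels per kb of exon spanned a wide range, and the median member had 37.1 spike-in scaled reads per kb after 15 min and 16.2 after 5 min. By complex the medians were 23.7 after 15 min and 8.94 after 5 min for complex II, 39.9 after 15 min and 19.5 after 5 min for complex III, 22.0 after 15 min and 5.81 after 5 min for complex IV, and 55.8 after 15 min and 22.0 after 5 min for complex V, counting members with no reads. Subunits had a median of 50.9 per kb after 15 min and 21.5 after 5 min, and assembly factors 14.8 after 15 min and 5.26 after 5 min. Exon length was the union of all annotated exons, retained introns included, which lowers the level per kb of genes with long alternative transcripts such as UQCRB and SDHC.

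**Figure D2:**
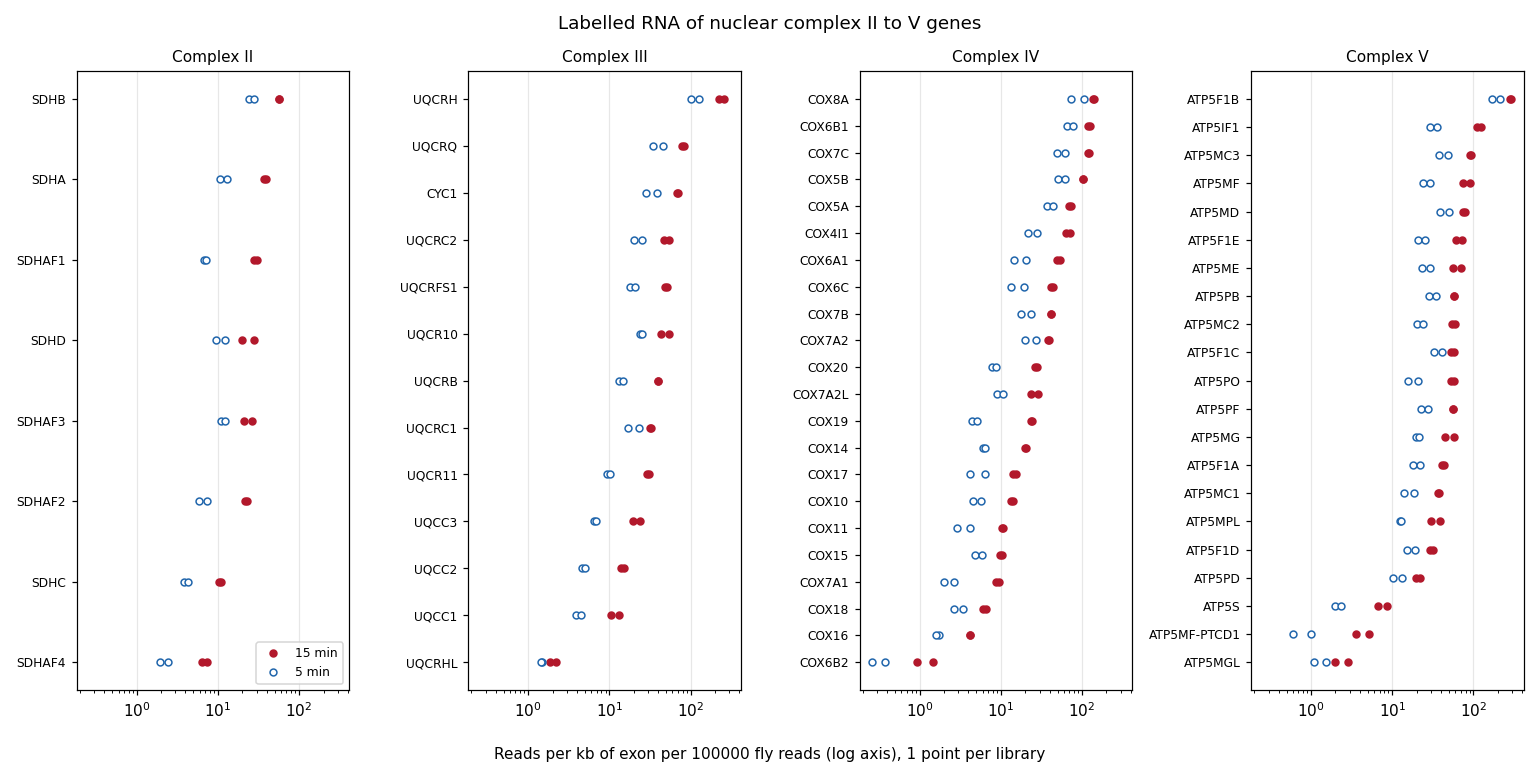
Spike-in scaled reads per kb of exon (log axis) of every member of complexes II to V with reads after 15 min, ordered by the 15 min mean; red points are the 15 min libraries and open blue points the 5 min libraries. ATP5F1B (mean 287 per kb after 15 min and 189 after 5 min) and UQCRH (242 after 15 min and 114 after 5 min) stood highest. Red lay right of blue in every gene drawn, but COX7B2, with 2 reads in 5 min replicate 2 and 0 after 15 min, is not drawn.

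In complex II, SDHA was not called in share while the other 3 subunits fell. SDHA, the flavoprotein that oxidises succinate, had 329.8 and 310.4 spike-in scaled reads after 15 min, against 89.0 and 109 after 5 min, a 3.23-fold difference (adjusted p = 1.18e-22, edgeR quasi-likelihood test with Benjamini-Hochberg adjustment). Its log2 fold change in share was 0.05 ± 0.0663 (SE, adjusted p = 0.622). SDHB, which carries the iron-sulfur clusters, had 138 and 139.8 after 15 min, against 59.9 and 68.4 after 5 min, and its share fell by 0.54 (log2, SE 0.0788, adjusted p = 1.67e-10). Reads were higher after 15 min in both genes with no overlap of libraries, yet SDHB gained 2.16-fold and SDHA 3.23-fold.

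The membrane anchors, which bind ubiquinone, moved with SDHB. SDHC had 153 and 145 spike-in scaled reads after 15 min, against 55.0 and 61.0 after 5 min, and its share fell by 0.29 (log2, adjusted p = 0.00137). SDHD had 56.5 and 78.6 after 15 min, against 27.3 and 35.0 after 5 min, and its share fell by 0.53 (log2, adjusted p = 6.28e-06). The libraries of the label times did not overlap in either gene. The SDHC call was lost with DESeq2 and with total human counts, and the SDHD call without 15 min replicate 1. SDHD overlaps TIMM8B on the other strand, and whether the counting used strand is unknown here. SDHA has a transcribed near copy, SDHAP1, with 227 and 189 reads after 15 min and 100 and 115 after 5 min, and reads of the pair may have been divided between them by the authors' counting.

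Of the complex II assembly factors 1 fell in share and 3 were not called. SDHAF3, which helps mature SDHB, had 48.3 and 60.2 spike-in scaled reads after 15 min, against 25.1 and 28.5 after 5 min, and its share fell by 0.63 (log2, SE 0.117, adjusted p = 5.93e-07). SDHAF1, another factor for the iron-sulfur subunit, had 30.7 and 33.7 after 15 min, against 7.47 and 7.96 after 5 min, a 4.17-fold difference, the largest in the complex. Its log2 fold change in share was 0.41 ± 0.174 (SE, adjusted p = 0.0501), with both 15 min libraries (18.9 and 21.4 TMM-scaled CPM) above both 5 min libraries (16.0 and 14.3 CPM). It passed with total human counts, with TMM from nuclear genes only and with a replicate block. SDHAF2, which attaches the flavin to SDHA, and SDHAF4 were not called, at 0.12 ± 0.131 and 0.01 ± 0.288.

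Promoter windows, from 250 bases before to 50 bases after the RefSeq start (GRCh38.p14), were read for the letters CCGGAAG, the core of sites for ETS factors such as GABP (nuclear respiratory factor 2), and for the core for nuclear respiratory factor 1 (NRF1), which is GCGCA, any base and GCGC, on both strands. Both factors are known regulators of respiratory chain genes. The stretches of SDHA and SDHD are shown because SDHA was not called in share and SDHD fell, and both windows hold matches. The SDHA stretch (chr5:218144-218270, plus strand) has 3 of the 4 NRF1 matches in its window, and the match nearest the start lies outside the stretch. The SDHD stretch (chr11:112086753-112086802, plus strand) has 1 NRF1 match and 1 ETS match. Capitals mark the matches, and both are written 5′ to 3′ on the gene's strand.
SDHA: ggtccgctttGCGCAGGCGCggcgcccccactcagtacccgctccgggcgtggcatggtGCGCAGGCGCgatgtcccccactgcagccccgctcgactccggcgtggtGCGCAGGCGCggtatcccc
SDHD: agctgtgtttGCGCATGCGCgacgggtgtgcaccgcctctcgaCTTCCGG

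In complex III, 7 of 9 subunits fell in share, 0 of 3 assembly factors were called, and the copy UQCRHL fell. Among tested protein-coding genes 30.5% fell and 13.7% rose. UQCRC1, a core subunit, had 106 and 103 spike-in scaled reads after 15 min, against 55.4 and 75.0 after 5 min, and its share fell by 0.97 (log2, SE 0.0830, adjusted p = 2.62e-29). Its 15 min libraries held 65.0 and 65.1 TMM-scaled CPM and its 5 min libraries 119 and 135 CPM. UQCRC2, the other core subunit, had 284 and 243 after 15 min, against 104 and 132 after 5 min, and its share fell by 0.48 (log2, adjusted p = 7.11e-12). The libraries of the label times did not overlap in either gene, on either scale.

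The catalytic subunits fell as well. CYC1, cytochrome c1, had 135 and 138 spike-in scaled reads after 15 min, against 56.3 and 75.4 after 5 min, and its share fell by 0.59 (log2, SE 0.0788, adjusted p = 1.26e-12). UQCRFS1, the Rieske iron-sulfur protein, had 179 and 166 after 15 min, against 62.2 and 73.0 after 5 min, and its share fell by 0.29 (log2, adjusted p = 0.000496). In both, all 15 min libraries lay above the 5 min libraries on the spike-in scale and below them in share.

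Of the small subunits UQCRH, UQCRQ and UQCR10 fell in share, and UQCRB and UQCR11 were not called. UQCRH, the hinge protein that contacts cytochrome c1, had the highest level of the complex, 261 and 224 spike-in scaled reads per kb after 15 min, against 102 and 126 after 5 min, and its share fell by 0.56 (log2, adjusted p = 5.13e-17). UQCRQ followed with 83.8 and 78.1 per kb after 15 min, against 34.8 and 45.3 after 5 min, and its share fell by 0.63 (log2, adjusted p = 5.11e-13). UQCRQ overlaps GDF9 on the other strand. UQCR11 had 63.4 and 65.4 spike-in scaled reads after 15 min, against 20.0 and 22.1 after 5 min, a 3.06-fold difference with a log2 fold change in share of -0.04 ± 0.119, which was 0.06 with total human counts. UQCRB, at -0.14 ± 0.0633 (adjusted p = 0.0712), passed with a replicate block and without 5 min replicate 2.

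UQCRHL had few reads, 13 and 15 after 15 min and 29 and 25 after 5 min. On the spike-in scale it had 4.08 and 4.85 after 15 min, against 3.23 and 3.11 after 5 min, a 1.40-fold difference that did not pass (adjusted p = 0.200), and its share fell by 1.16 (log2, SE 0.345, adjusted p = 0.00329). The share call was lost without replicate 1 of either label time. Its coding sequence was 98.6% identical to that of UQCRH over 276 bases, with a longest shared run of 157 bases, so its reads cannot be told apart from those of UQCRH with certainty. The cytochrome b assembly factors UQCC1, UQCC2 and UQCC3 were 2.79-fold, 3.03-fold and 3.30-fold higher after 15 min and not called in share. UQCC1 was at -0.17 ± 0.105, with both 15 min libraries below both 5 min libraries in share, and UQCC2 at -0.05 ± 0.115, with overlap. UQCC3 had the highest log2 fold change in share of the complex, 0.07 ± 0.133, with 35.3 and 29.8 CPM after 15 min and 33.0 and 29.3 after 5 min, which overlapped.

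UQCR11 and UQCRC1 stand at opposite ends of the complex III subunits in share, and their promoter stretches are shown for that reason. The UQCR11 stretch (chr19:1605463-1605589, minus strand) holds 2 ETS and 2 NRF1 matches, and the UQCRC1 stretch (chr3:48609674-48609703, minus strand) holds 1 NRF1 match.
UQCR11: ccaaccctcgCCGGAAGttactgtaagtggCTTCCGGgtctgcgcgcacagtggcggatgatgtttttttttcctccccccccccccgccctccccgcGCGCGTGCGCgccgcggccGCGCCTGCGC
UQCRC1: gtacggtactGCGCCTGCGCcgcgaccgcc

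CYCS encodes cytochrome c, the soluble carrier between complexes III and IV, which also takes part in apoptosis once released from mitochondria. It had 553 and 526 spike-in scaled reads after 15 min, against 165 and 213 after 5 min, a 2.85-fold difference (adjusted p = 2.93e-18). Per kb this was 124 and 118 after 15 min, against 37.1 and 47.8 after 5 min. Both 15 min libraries lay well above both 5 min libraries. Its log2 fold change in share was -0.13 ± 0.0610 (SE, adjusted p = 0.0723), and it passed with a replicate block and without 5 min replicate 1.

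In complex IV, 9 of 12 tested subunits fell in share and 0 rose, while of 10 assembly or supercomplex factors 3 fell and 1 rose. Among tested protein-coding genes 30.5% fell and 13.7% rose, so the factors were near that background. COX8A, a small membrane subunit, had 70.0 and 71.5 spike-in scaled reads after 15 min, against 37.6 and 53.9 after 5 min, a 1.55-fold difference (adjusted p = 0.000305). Its share fell by 1.01 (log2, SE 0.0967, adjusted p = 1.09e-23), with 43.0 and 45.4 CPM after 15 min and 80.5 and 96.9 CPM after 5 min. The libraries did not overlap on either scale, though the accumulation call was lost without 15 min replicate 2. COX8A overlaps the coding gene AP000721.1 on the same strand, so its reads may not be separable from those of that gene. Per kb COX8A also had the highest level of the complex, 138 and 141 after 15 min, against 74.1 and 106 after 5 min.

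COX6B1, an intermembrane-space subunit, came next per kb with 124 and 118 after 15 min, against 65.1 and 76.8 after 5 min. Its spike-in scaled reads were 116 and 110.4 after 15 min, against 61.0 and 71.9 after 5 min, and its share fell by 0.88 (log2, adjusted p = 1.80e-25). The matrix-side subunits COX5A and COX5B fell in share by 0.82 and by 0.77 (log2, adjusted p = 7.02e-20 and 7.47e-23). COX7C, a small subunit, had 243 and 232 spike-in scaled reads after 15 min, against 97.7 and 125 after 5 min, and its share fell by 0.55 (log2, adjusted p = 1.54e-14). COX6C fell by 0.23 (adjusted p = 0.0179), and lost its call with DESeq2, with total human counts, and without 15 min replicate 1 or 5 min replicate 2.

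Several complex IV subunits exist as isoform genes, a common form and a form known from muscle, lung or testis, and in every pair most of the labelled RNA came from the common form. COX4I1 had 339.8 and 306 spike-in scaled reads after 15 min, against 102 and 132 after 5 min, while COX4I2, known from lung, had 0 reads in all 4 libraries. COX6A1 had 72.2 and 66.0 after 15 min, against 19.7 and 27.9 after 5 min, while COX6A2, a heart and skeletal muscle form, had 0 reads. COX8C, a testis form, likewise had 0 reads beside COX8A. A count of 0 allows up to 0.941 and 0.971 spike-in scaled reads in the 15 min libraries and 0.334 and 0.373 in the 5 min libraries (3 reads per library), and these limits cover counting error only.

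The remaining tissue forms were low but not all at 0. COX6B2, a testis form, had 5.65 and 3.56 spike-in scaled reads after 15 min, against 1.45 and 0.995 after 5 min, beside the COX6B1 values above. COX7A1, a muscle form, had 8.79 and 9.71 after 15 min, against 2.68 and 1.99 after 5 min, while COX7A2, the common form, had 75.6 and 73.1 after 15 min, against 38.5 and 52.9 after 5 min. Per kb the 15 min means were 9.19 for COX7A1 and 38.7 for COX7A2. COX7B had 127 and 126 spike-in scaled reads after 15 min, against 54.3 and 72.1 after 5 min, while COX7B2, a testis form, had 2 reads in 5 min replicate 2 and 0 in the other libraries, which is under the limit that a count of 0 allows.

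Of the pairs with both forms tested, the common form fell in share and the tissue form was not called. COX6B1 fell by 0.88 and COX7A2 by 0.94 (log2, adjusted p = 5.94e-21), while COX6B2 was at 0.24 ± 0.442 and COX7A1 at 0.32 ± 0.313. The SEs of the tissue forms rest on 8 to 18 reads per library for COX6B2 and 16 to 30 for COX7A1, and the difference between the forms was not tested. COX4I1 fell by 0.18 in share (adjusted p = 0.0166), a call lost with total human counts, DESeq2, and without replicate 2 of either label time. COX6A1 was not called at -0.10 ± 0.114, and COX7B fell by 0.64 (adjusted p = 4.43e-14).

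The COX8A promoter stretch is shown because it is the complex IV gene with the largest fall in share and its window holds an ETS match next to the start (chr11:63974592-63974618, plus strand).
COX8A: agctccagaaCTTCCGGccagcgcagc

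Among the complex IV assembly factors, COX19 stood alone in rising. COX19, a copper-handling protein of the intermembrane space, had 130.2 and 133 spike-in scaled reads after 15 min, against 24.6 and 28.6 after 5 min, a 4.95-fold difference (adjusted p = 1.09e-36). Its log2 fold change in share was 0.66 ± 0.0955 (adjusted p = 1.05e-10), with 80.0 and 84.4 CPM after 15 min and 52.8 and 51.5 CPM after 5 min, and the call held in every alternative run. COX19 overlaps ADAP1 on the same strand, and reads of the pair may not be separable.

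The other factors were at or below the bulk of genes. COX15, needed for haem A synthesis, fell in share by 0.72 (log2, SE 0.129, adjusted p = 2.46e-07), and COX18, which helps insert COX2 into the membrane, fell by 0.60 (log2, SE 0.130, adjusted p = 3.15e-05). COX10, which acts with COX15 on haem A, was not called at -0.23 ± 0.138. The copper proteins COX11 and COX17 were not called at -0.05 ± 0.115 and -0.15 ± 0.160, so within the copper group values ran from -0.15 to 0.66. COX14, COX16 and COX20 were not called, at 0.04 ± 0.196, -0.33 ± 0.304 and 0.06 ± 0.0872. COX7A2L, which joins complexes III and IV in supercomplexes, had 162 and 133 spike-in scaled reads after 15 min, against 50.9 and 60.2 after 5 min, and its share fell by 0.24 (adjusted p = 0.0107), a call lost with total human counts, DESeq2 and without 15 min replicate 2. COX16 had 7.84 and 7.77 spike-in scaled reads after 15 min, against 3.23 and 2.99 after 5 min, with no overlap. COX16 shares its locus with the readthrough SYNJ2BP-COX16, COX15 overlaps AL133353.2 and COX17 overlaps POPDC2 on the same strand, and COX20 overlaps HNRNPU on the other strand.

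**Figure D3:**
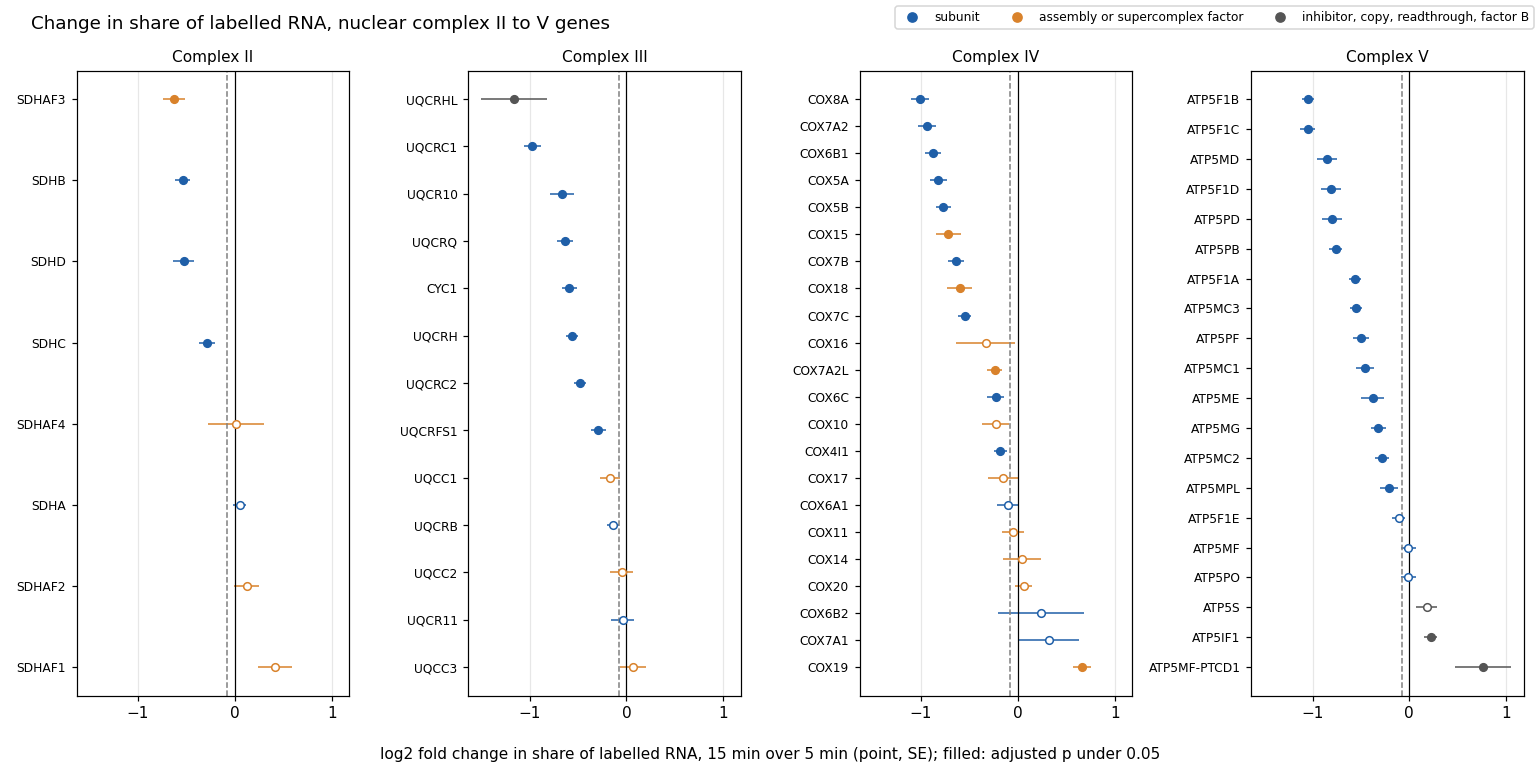
log2 fold change in share of labelled RNA, 15 min over 5 min, with SE, of the 63 tested members of complexes II to V (blue subunits, orange assembly or supercomplex factors, grey others; filled where the adjusted p was under 0.05). The solid line marks 0 and the dashed line the median of tested protein-coding genes, -0.08. Blue points lie mostly left of both lines, while orange points scatter around them, from -0.72 (COX15) to 0.66 (COX19).

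In complex V, 14 of 17 subunits fell in share, 0 rose, and the inhibitor ATP5IF1 and the readthrough ATP5MF-PTCD1 rose. Among tested protein-coding genes 30.5% fell and 13.7% rose. ATP5F1B, the catalytic beta subunit of the F1 head, had the highest level per kb of all members, 282 and 291 after 15 min, against 168 and 211 after 5 min. Its spike-in scaled reads were 655 and 675 after 15 min, against 389.7 and 489.6 after 5 min, a 1.51-fold difference (adjusted p = 0.000505). Its share fell by 1.05 (log2, SE 0.0609, adjusted p = 4.25e-63), with 402 and 428 CPM after 15 min and 835 and 881 CPM after 5 min. The label times did not overlap on either scale. The accumulation call was lost without either 15 min library, and the locus holds the small nucleolar RNA SNORD59A.

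The F1 subunits did not move alike. ATP5F1C, the gamma subunit of the rotating shaft, had 125 and 135 spike-in scaled reads after 15 min, against 76.7 and 94.8 after 5 min, a 1.51-fold difference (adjusted p = 0.000349), a call lost without 15 min replicate 2. Its share fell by 1.05 (log2, SE 0.0764, adjusted p = 1.56e-40), the most of the complex together with ATP5F1B. ATP5F1D, the delta subunit, fell in share by 0.81 (adjusted p = 2.79e-14), and ATP5F1A, the alpha subunit, fell by 0.56 (adjusted p = 3.09e-18). ATP5F1E, the epsilon subunit, had 368 and 310.4 spike-in scaled reads after 15 min, against 105 and 129 after 5 min, and was not called in share at -0.11 ± 0.0649. The alpha and beta subunits stand in equal numbers in the enzyme, and their labelled RNA per kb averaged 42.1 ± 1.23 for ATP5F1A and 287 ± 6.19 for ATP5F1B after 15 min (SD, n = 2), though the ATP5F1A union of exons is 10908 bases and that of ATP5F1B 2322.

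Of the peripheral stalk genes, which hold the head still, 3 fell in share and 1 was not called. ATP5PB had 197 and 196 spike-in scaled reads after 15 min, against 95.1 and 117 after 5 min, and its share fell by 0.76 (adjusted p = 1.26e-25). ATP5PD fell by 0.80 (adjusted p = 1.58e-13) and ATP5PF by 0.50 (adjusted p = 5.70e-08). ATP5PO, the subunit that confers oligomycin sensitivity, had 194 and 178 after 15 min, against 52.1 and 68.3 after 5 min, and was at -0.01 ± 0.0761 in share. ATP5PF overlaps GABPA, which encodes the ETS factor named above, on the other strand.

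The c ring is made of identical proteins from 3 genes that differ in the targeting sequence removed on import. ATP5MC3 had 639 and 608 spike-in scaled reads after 15 min, against 258 and 328 after 5 min, and its share fell by 0.55 (log2, SE 0.0604, adjusted p = 1.57e-18). ATP5MC2 had 237 and 217 after 15 min, against 79.8 and 95.9 after 5 min, and its share fell by 0.28 (adjusted p = 0.000411). ATP5MC1 had 97.6 and 96.4 after 15 min, against 36.8 and 48.9 after 5 min, and its share fell by 0.46 (adjusted p = 3.73e-06). All 3 fell, with no overlap of label times, and per kb their 15 min means were 92.0, 56.9 and 37.1 in the same order. Over the last 228 coding bases the 3 genes were 81.1% to 89% identical, and their longest shared runs were 11 to 17 bases.

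The other membrane subunits of the Fo part gave a range of values. ATP5MD fell by 0.85 (adjusted p = 3.20e-16), ATP5ME by 0.38, ATP5MG by 0.32 and ATP5MPL by 0.21 (adjusted p = 0.0481). The ATP5ME and ATP5MG calls were lost with DESeq2 and without 15 min replicate 2, that of ATP5ME also without 5 min replicate 2, and the ATP5MPL call was lost in 5 of the alternatives, with no filter, DESeq2, total human counts, and without 5 min replicate 1 or 15 min replicate 2. ATP5MF had 205 and 171 spike-in scaled reads after 15 min, against 53.8 and 66.7 after 5 min, and was at -0.01 ± 0.0760 in share.

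ATP5IF1, which stops the synthase from running backwards and splitting ATP, went the other way from the subunits. It had 275 and 248 spike-in scaled reads after 15 min, against 64.4 and 79.2 after 5 min, a 3.64-fold difference (adjusted p = 8.46e-27). Per kb it came next after ATP5F1B in the complex with 124 and 111 after 15 min, against 29.0 and 35.6 after 5 min. Its log2 fold change in share was 0.22 ± 0.0707 (adjusted p = 0.00804), with 169 and 157 CPM after 15 min and 138 and 143 CPM after 5 min, and the call was lost with DESeq2 and without replicate 1 of either label time. ATP5S, coupling factor B, was not called at 0.18 ± 0.107.

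ATP5MF-PTCD1, a transcript that runs from ATP5MF into PTCD1, had 10.4 and 14.9 spike-in scaled reads after 15 min, against 2.90 and 1.74 after 5 min, from 33 and 46 reads after 15 min and 26 and 14 reads after 5 min. Its 5.33-fold difference was the largest of all members (adjusted p = 1.95e-14), and its log2 fold change in share was 0.76 ± 0.291 (adjusted p = 0.0264). The share call was lost with DESeq2 and without replicate 2 of either label time. It lies over ATP5MF and PTCD1 on the same strand, so its few reads depend on how shared exons were counted. ATP5MGL, an ATP5MG-like gene, did not pass the filter, with 5 and 7 reads after 15 min and 11 and 7 after 5 min.

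The ATP5F1C promoter stretch (chr10:7788145-7788174, plus strand) is shown as that of the complex V gene that fell most whose window holds a match, here 1 for NRF1.
ATP5F1C: gggagcttcgGCGCATGCGCgctgaggcct

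The RefSeq promoter table matched 51 of the 69 members by symbol. An ETS core stood in the windows of 21 of them (41.2%), beside 12.2% of all 27305 genes and 16.5% of the 15843 protein-coding genes in the table. An NRF1 core stood in 16 (31.4%), beside 6.98% of all genes and 9.67% of protein-coding ones, and 5 members (9.8%) held both, beside 1.56% and 2.26%. By complex an NRF1 core stood in 4 of 7 matched genes of complex II, 6 of 9 of complex III, 3 of 22 of complex IV and 3 of 12 of complex V. An ETS core stood in 4 of 7, 3 of 9, 9 of 22 and 5 of 12. A gene with several windows counted once, and a sequence that reads as the NRF1 core on both strands was 1 site. No ETS match overlapped an NRF1 match in the first listed window of any member. Further windows of the 8 members with several were not checked for overlap.

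In share, members with a core spanned log2 fold changes of -1.01 to 0.12 (ETS) and -1.05 to 0.05 (NRF1), and those without spanned -1.05 to 0.66 and -1.01 to 0.66. The median log2 fold change was -0.53 for 21 tested members with an ETS core and -0.28 for 27 without, and it was -0.29 for 15 with an NRF1 core and -0.46 for 33 without. Of the 21 with an ETS core 15 fell and 0 rose, and of the 27 without 14 fell and 2 rose. Of the 15 with an NRF1 core 8 fell and 0 rose, and of the 33 without 21 fell and 2 rose. Among all tested members 59.4% fell and 4.69% rose. Among tested protein-coding genes 30.5% fell and 13.7% rose, and among all tested genes 21.3% fell and 16.8% rose. Genes outside the members were not split by core. These are descriptions of letters in the windows, and the difference was not tested.

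The authors deposited 1 synthesis rate per gene for the untreated cells, with no unit and no replicate, in a table of 11777 genes, and 51 of the 69 members had a rate. Their median rate was 0.0437 (quartiles 0.0199 and 0.0863), beside 0.0114 (0.00374 and 0.0257) for all genes in the table and 0.0123 for its protein-coding genes. Of the 51 members 42 lay above the median of all genes and 34 above its upper quartile. By complex the medians were 0.0368 for complex II, 0.0611 for complex III, 0.0415 for complex IV and 0.0695 for complex V. Subunits had a median rate of 0.0702 and assembly factors 0.0150, which is near the 0.0123 of protein-coding genes as a whole.

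The highest rates belonged to ATP5F1B at 0.355, the c ring gene ATP5MC3 at 0.231, COX7C at 0.222, UQCRQ at 0.211 and CYCS at 0.208. None of these 5 is from complex II, whose highest rate was 0.0433 for SDHB. The lowest were COX16 at 0.000319, the testis form COX6B2 at 0.00128 and COX19 at 0.00390. COX16 and COX19 are 2 of the genes that share their locus with another gene on the same strand. SDHA had a rate of 0.0372 and SDHC of 0.0193, and no rate was matched to SDHD. The c ring gene ATP5MC2 had 0.0230, against 0.231 for ATP5MC3, a wider gap than their 15 min levels of 56.9 and 92.0 per kb.

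Rates followed the counts closely. Across the 51 members the correlation of log10 rate with log10 5 min level per kb was r = 0.86 (Spearman rho 0.84), beside r = 0.88 over 9774 tested protein-coding genes. Rates and levels come from the same cells and may share libraries, so the relation is a description across genes, which are not independent replicates. Across members the share log2 fold change ran against the rate (r = -0.43, n = 51) and against the 5 min level per kb (r = -0.56, n = 64), beside -0.14 and -0.31 over tested protein-coding genes. The 5 min counts enter both sides of the last relation.

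**Figure D4:**
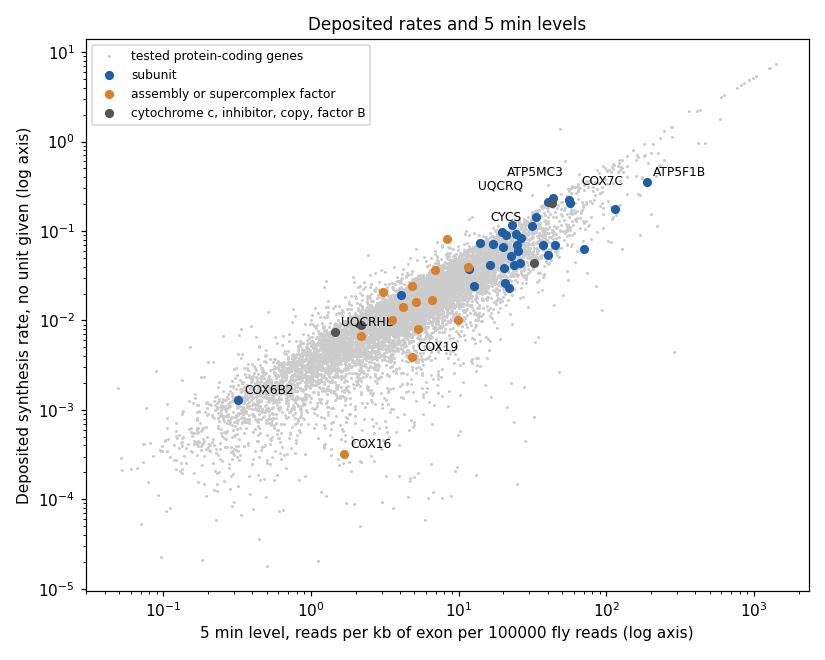
Deposited synthesis rate (no unit given, log axis) against the mean 5 min level in spike-in scaled reads per kb of exon (log axis) for tested protein-coding genes (light grey) and members (blue subunits, orange assembly or supercomplex factors, dark grey others). Members follow the diagonal of all genes, with ATP5F1B (0.355) at the upper right and COX16 (0.000319) below the rest.

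Nuclear genes of the neighbouring pathway steps were counted in the same way, beside 30.5% lower and 13.7% higher among tested protein-coding genes. Of 47 tested genes whose symbols begin with NDUF, taken here as the nuclear complex I list, 23 fell and 3 rose in share. Their median log2 fold change was -0.25. The list was made by name alone, and membership in complex I was not checked gene by gene. Of 14 tricarboxylic acid cycle genes 12 fell and 0 rose (median -0.53), including the malate dehydrogenase MDH2, which fell by 0.55 (adjusted p = 3.00e-17). The largest fall was that of OGDH, by 1.37 (adjusted p = 3.54e-43). Of 4 ADP/ATP and phosphate carriers 3 fell and 0 rose. The phosphate carrier SLC25A3 fell by 0.24 (adjusted p = 0.000425), SLC25A5 by 0.87 (adjusted p = 3.37e-41) and SLC25A6 by 1.20 (adjusted p = 1.70e-13). Of 20 assembly factors outside the naming rule 5 fell and 0 rose (median -0.02), where the share lower is near that background. Of 10 regulators 3 fell and 2 rose, also near it. TFAM, the packaging factor of mitochondrial DNA, fell by 0.52 (adjusted p = 8.57e-14), and POLRMT fell by 0.72 (adjusted p = 3.98e-11). YY1 was not called at -0.08. GABPA, PPRC1 and PPARGC1B are named here after their values were seen. GABPA fell by 0.37 (adjusted p = 0.000784), and the coactivator genes PPRC1 and PPARGC1B rose by 0.42 and 0.23 (adjusted p = 2.37e-08 and 0.00326).

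The mitochondrially encoded partners of complexes III to V all rose in share, 6 of 6, with a median log2 fold change of 1.37. Among all tested genes 16.8% rose, and among tested protein-coding genes 13.7%. MT-CYB, the complex III subunit, had 13194 and 10942 spike-in scaled reads after 15 min, against 1163 and 1742 after 5 min, a ratio of 8.31 ± 2.59, where the nuclear genes of the complex had 2.34 ± 0.351. The 3 mitochondrial complex IV genes had a ratio of 5.16 ± 1.35, where the nuclear genes had 2.34 ± 0.395. The 2 mitochondrial complex V genes had 10.7 ± 3.76, where the nuclear genes had 2.17 ± 0.333. In each of these complexes the mitochondrial ratio exceeded the nuclear one in every pairing of libraries: the lowest mitochondrial ratios were 6.28, 4.03 and 7.67 for complexes III, IV and V, and the highest nuclear ratios 2.71, 2.69 and 2.49.

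Annotated coding genes that lie over a member on the same strand can also take or share its reads. Beside those named above this holds for SDHD (AP002884.3), SDHAF2 (AP003108.2), UQCR11 (AC005943.1), COX6A1 (AL021546.1), COX6B2 (AC020922.1), COX8C (UNC79), ATP5MG (AP001267.5), ATP5MGL (CYB5R3) and ATP5PO (AP000311.1).

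Processed and other pseudogenes named after members took few reads. Of 149 in the counts 58 had reads and 24 passed the filter, and together they came to 3.75% and 3.66% of the members' reads after 15 min and 2.11% and 1.75% after 5 min. Reads that match a member and a pseudogene equally cannot be placed from the counts, which bears on SDHA, SDHC, SDHD, CYCS and ATP5PD, whose pseudogenes SDHAP1, SDHCP3, SDHDP2, CYCSP10 and ATP5PDP4 had the most reads.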

How the data were processed

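TT-seq libraries of untreated K562 cells were compared between 15 min and 5 min of labelling, 2 libraries each. The authors deposited unnormalized whole-number counts for human genes and, in a separate file, for fly genes. A synthesis rate for each gene was deposited as well and was treated as a score, since its header gives no unit. The submitters' processing notes name STAR 2.7, featureCounts, Subread 2.0.1, edgeR and bcl2fastq 2.17.1.14, with builds hg38 and dm6. Strand and feature settings of the counting are not given in the sources consulted, so reads of overlapping genes are uncertain.

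Members, roles and lists were chosen with earlier results of these data known. Symbols, positions and exon lengths came from GENCODE 29. Counts were divided by fly totals per 100000 reads, and ratios and folds are 15 min over 5 min. Genes were tested with edgeR 4.0.16 (filterByExpr, minimum count 10, robust quasi-likelihood fit, R 4.3.3) on all 4 libraries with label time as the only term. For accumulation the library sizes were the fly totals, and for share they were human totals with TMM factors. Two-sided p-values were adjusted by Benjamini-Hochberg over all 17322 tested genes at 0.05, and SEs came from the F statistic. The fits were tested on simulated data. Alternatives were other scalings, no filter, DESeq2 1.42.0, a replicate block and leaving out each library. Replicates differed by more than counting noise (chi-square per degree of freedom 1.75 after 15 min and 1.60 after 5 min). Depth was 4339981 to 5051370 human reads per library, and counting limits cover counting error only, since no molecular identifiers are given. Promoters came from RefSeq (GRCh38.p14), where 51 members matched. Rates were matched by gene identifier, for 51 members. The symbol given with the rate also fit the naming rule in 44 of them and did not in 7.

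Values in every library are given for the 2 members of each complex with the highest 15 min level per kb, those with the highest and lowest change in share, the SDH subunits, CYC1, CYCS, isoform groups, members that moved against the majority in share or did not pass in accumulation, and the 5 highest and 3 lowest rates. Other members may be named, and their library values were added after seeing the data. From other lists, the 2 genes with the highest mean count and the one with the largest change could be named.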

Additional observations from a re-analysis of the deposited data

How the results depend on the processing

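In accumulation, 572 of 576 values of single members under the alternatives kept their direction and call, and the other 4 lost the call (ATP5F1B without either 15 min library, ATP5F1C and COX8A without 15 min replicate 2). The accumulation median of complex IV ranged from 1.24 to 1.57 when libraries were left out, against 1.41. In share, 571 member values kept both, 32 lost a call, 9 gained one and 25 changed sign, all of them in members that were not called. DESeq2 called 962 genes higher and 2279 lower, 1 member higher, and 0 of complex V. Leaving out libraries gave 1729 to 2149 genes higher and 1 to 1 member of complex V. Total human counts called 5 members, 1 of complex II and 2 assembly factors higher, and gave medians of -0.38 for complex III, -0.13 for complex IV, -0.43 for subunits and 0.05 for assembly factors. TMM from nuclear genes only called 1 member of complex II and 2 assembly factors higher. Leaving out libraries gave medians of -0.32 to -0.22 for complex IV and -0.17 to -0.05 for assembly factors. With total human counts the sign changed in UQCC2 (0.05), ATP5MF (0.10), COX6A1 (0.00), COX11 (0.05), UQCR11 (0.06) and ATP5PO (0.09), and with median-of-ratios factors in SDHAF4 (-0.00). Without a library the ranges were -0.02 to 0.12 for COX20, -0.34 to 0.04 for COX17, -0.00 to 0.06 for SDHA, -0.15 to 0.14 for SDHAF4, -0.13 to 0.08 for ATP5MF, -0.07 to 0.16 for UQCC3, -0.05 to 0.08 for COX14, -0.25 to 0.02 for COX6A1, -0.01 to 0.31 for ATP5S, -0.21 to 0.09 for COX11, -0.00 to 0.65 for COX7A1, -0.12 to 0.65 for COX6B2 and -0.11 to 0.05 for ATP5PO. Per gene span in place of exon length, the 15 min medians relative to all members were 0.390 for complex II, 2.11 for complex III and 0.462 for complex IV, against 0.649, 1.06 and 0.580 per kb of exon, and with no length scaling 0.705 for complex IV and 1.37 for complex V, against 0.580 and 1.49. Over subunits only, median rates were 0.0702 for all complexes, 0.0372 for complex II, 0.0860 for complex III, 0.0628 for complex IV and 0.0703 for complex V. The cause was not tested. Where leaving out a library left 1 at a label time, that library is assumed to vary like the other pair. Members with few reads, such as COX6B2 and UQCRHL, limit what could be detected.

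The labels do not say that a replicate number marks a shared culture or day. Deviations of libraries with the same number correlated at 0.049. Counting noise is part of these deviations, so the value cannot show whether the numbers pair the libraries, and pairing is unknown here. With a replicate block 3080 genes were higher and 3878 lower in share, 1 member of complex II and 2 assembly factors were higher, and 40 members were lower.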
